A study of Mus musculus with 9 samples.

Results

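The TAM receptors MERTK, AXL and TYRO3, the ligands and bridging proteins that tie them and their partner receptors to dying cells, and the proteins that turn binding into engulfment were followed by RNA-seq through 3 states of mouse bone marrow-derived macrophages. The set held 9 genes of the 55655 rows in each expression table: the receptors Mertk, Axl and Tyro3, the ligands Gas6 and Pros1, the bridging protein gene Mfge8, the uptake receptor gene Lrp1, and Elmo1 and Dock1. They were chosen by symbol, through the Ensembl identifiers of the tables, and every one had a row in both.

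Efferocytosis is the clearance of dying cells by phagocytes, which read the lipid phosphatidylserine on the surface of a dying cell. GAS6 and protein S bind this lipid and activate the TAM receptor kinases, and MFG-E8 links the same lipid to αv integrins. LRP1 serves as a further uptake receptor, and ELMO1 with DOCK1 activates the GTPase RAC1 to remodel actin around the target. TAM signalling also dampens Toll-like receptor and cytokine responses of macrophages, in part through the SOCS proteins.

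Marrow from the femur and tibia of wild type C57BL/6 mice aged 6 to 8 weeks was grown with M-CSF at 10 ng/mL for 7 days, which gave the M0 group. The M1 group was M0 macrophages that received lipopolysaccharide (LPS) and interferon-γ (IFN-γ), with an induction of 12 h, and the M1 + PBM group received the same induction and photobiomodulation (PBM), a treatment of cells with low-power light. Each group had 3 libraries, all from whole cultures with M-CSF, and no group received PBM without induction. The labels do not say whether replicates came from separate animals, so the p-values measure the spread between these libraries, which may be technical. In whole cultures, fewer expressing cells and less RNA per cell cannot be told apart.

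Values are FPKM (fragments per kilobase of transcript and library size), which are set per length, so levels of different genes can be placed side by side. Fragments were estimated at 30700000 to 42080000 per library from the low FPKM values. This depth is approximate, since 22.5% to 24.3% of those values fell on whole fragments, against 10.0% for an even spread. M0 stood in a table that was normalized separately from the table of the other groups, so comparisons with M0 are given as values with no test. All 8 macrophage markers, such as Adgre1 and Csf1r, reached 1 FPKM in each group. The 8 neutrophil markers summed to at most 0.572 FPKM in M0, 2.97 in M1 and 2.55 in M1 + PBM. Only Camp among them reached 1 FPKM, in both M1 and M1 + PBM, whereas Ly6g was at 0 in all 9 libraries. The 6 dendritic cell markers summed to at most 0.877 FPKM in any library, with Flt3 at 0 throughout. M0 replicate 3 stood apart: its 8 stromal markers summed to 199.3 FPKM against 7.06 and 5.83 in the other M0 libraries, and its 8 M1 markers to 282.7 FPKM against 28.9 and 26.9. Tnf alone gave 233.3 FPKM of that M1 marker sum. Each M1 marker was highest in replicate 3 among the M0 libraries, but lower there than in any M1 library. M1 replicate 2 held 9.01 FPKM of the liver gene Alb, which was at 0 elsewhere. Stromal markers summed to between 13.2 and 15.4 FPKM in M1 and between 6.33 and 28.6 FPKM in M1 + PBM, and the part of these other markers in the results below was not tested.

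The upstream regions of Gas6, Pros1, Lrp1 and Elmo1 are shown because they hold the sites that LPS or IFN-γ responses are known to use, or, for Gas6, because this gene had the largest difference between M0 and M1. The Tyro3 region, which also held such a match, is not shown. The regions shown are the 250 bases before the annotated start, in RefSeq on GRCm38.p6, read in the direction of transcription. Capitals mark matches to the GAS element TTCNNNGAA or to the κB site that binds NF-κB.
Gas6 (chr8:13494536-13494785, minus strand): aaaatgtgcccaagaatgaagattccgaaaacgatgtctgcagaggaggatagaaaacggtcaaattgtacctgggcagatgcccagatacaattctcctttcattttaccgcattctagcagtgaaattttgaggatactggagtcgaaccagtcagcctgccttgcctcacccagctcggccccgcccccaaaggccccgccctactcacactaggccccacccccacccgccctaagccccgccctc
Pros1 (chr16:62854057-62854306, plus strand): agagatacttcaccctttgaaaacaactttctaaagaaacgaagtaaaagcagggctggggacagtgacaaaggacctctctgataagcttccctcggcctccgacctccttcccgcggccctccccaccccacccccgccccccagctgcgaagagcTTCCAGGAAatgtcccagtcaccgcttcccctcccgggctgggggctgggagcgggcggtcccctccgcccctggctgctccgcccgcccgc
Lrp1 (chr10:127621149-127621398, minus strand): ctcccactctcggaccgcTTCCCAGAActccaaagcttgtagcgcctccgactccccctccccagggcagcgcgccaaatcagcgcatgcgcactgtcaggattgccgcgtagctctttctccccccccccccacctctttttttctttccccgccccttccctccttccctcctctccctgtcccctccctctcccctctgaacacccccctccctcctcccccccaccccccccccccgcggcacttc
Elmo1, second start (chr13:20472740-20472989, plus strand): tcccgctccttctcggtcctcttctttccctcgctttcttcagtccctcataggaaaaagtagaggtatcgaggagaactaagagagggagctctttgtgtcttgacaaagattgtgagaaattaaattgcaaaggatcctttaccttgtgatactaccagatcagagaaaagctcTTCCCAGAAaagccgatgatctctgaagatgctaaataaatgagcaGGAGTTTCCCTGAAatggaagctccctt

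All 9 genes matched, with 10 windows of 300 bases, since Elmo1 had windows at 2 starts. The 8 motifs below were searched on both strands. Pros1 held a GAS element at -92, counted from the start site, Lrp1 held one at -232, and the second Elmo1 window held GAS elements at -74 and -23 and a κB match at -28 that overlaps the latter GAS element. The Tyro3 window held a κB match at -232, and the first Elmo1 window held the PU.1 site GAGGAAGT at 39 and TATAAA at -233. The windows of Mertk, Axl, Gas6, Mfge8 and Dock1 held none of the 8 motifs. Of all 32851 windows of this length, 8.30% held a GAS element, 4.51% a κB match, 3.20% the PU.1 site and 13.6% TATAAA. The motifs with no match in the set were the interferon element ISRE in 3.44% of all windows, the AP-1 site TGANTCA in 7.81%, the E-box CACGTG in 7.15% and the CRE TGACGTCA in 1.79%. A match describes these letters only.

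The 9 genes spanned a wide range of levels. In M0, Lrp1 was highest at 415.4 ± 67.5 FPKM (SD, n = 3), a level above 99.6% of the 13915 rows that reached 1 FPKM in at least 3 of the 9 libraries. Mfge8, Gas6, Axl and Mertk followed in that order with overlapping neighbours, and Elmo1, Dock1 and Pros1 came next without overlap between neighbours. In M1 the order was Lrp1, Axl, Mfge8, Mertk, Gas6, Elmo1, Pros1, Dock1 and Tyro3, and the order of the means was the same in M1 + PBM. Lrp1, Axl and Mfge8 each overlapped the next gene in that order in both activated groups, and they and Mertk all lay above Gas6 in every activated library. Gas6 thus stood above Axl and Mertk by its mean in M0 and below both in each activated library.

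**Figure D1:**
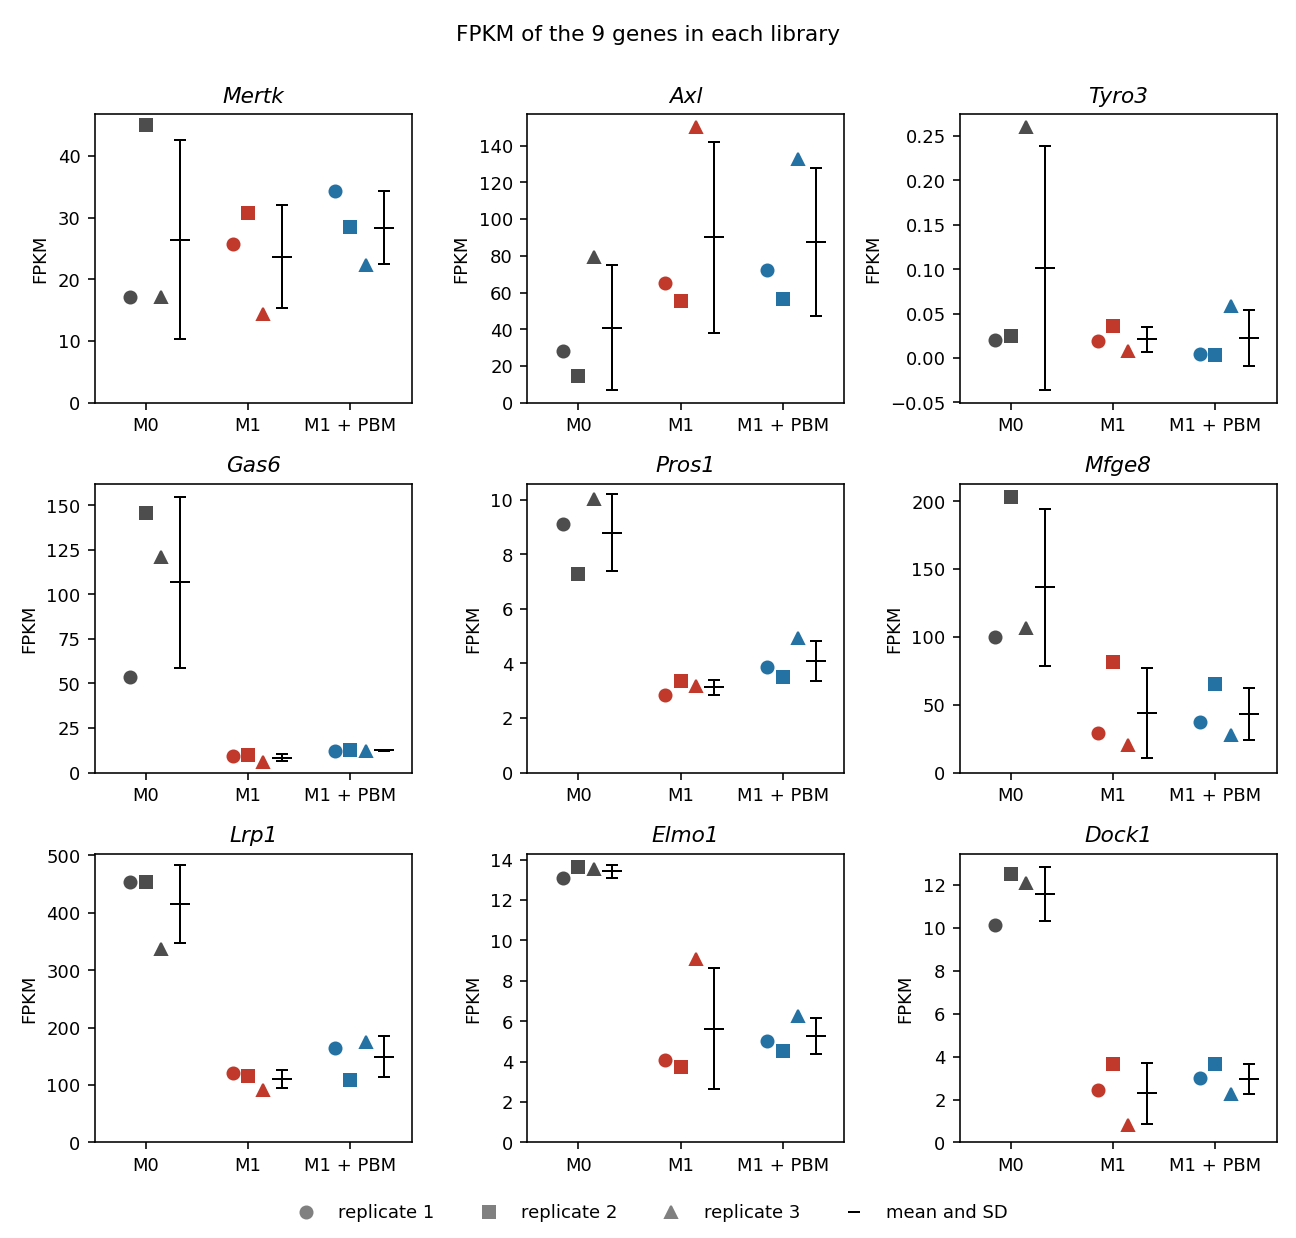
FPKM (linear axes, 1 scale per gene) of each of the 9 genes in the 3 libraries of M0, M1 and M1 + PBM, with symbols for the replicate number and bars for the mean and SD (n = 3). Gas6, Pros1, Mfge8, Lrp1, Elmo1 and Dock1 lie lower in every activated library than in any M0 library, and Axl and Mertk overlap between groups.

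Of the receptors, Mertk and Axl were both well expressed, and neither separated the groups. Mertk, the receptor that resident and resting macrophages use most for uptake, measured 17.1, 45.0 and 17.1 FPKM in M0 replicates 1, 2 and 3. It measured 25.7, 30.8 and 14.4 FPKM in M1. In M1 + PBM the values were 34.3, 28.4 and 22.4 FPKM. The 3 groups overlapped, with M0 replicate 2 the highest library and M1 replicate 3 the lowest, and the mean log2(FPKM + 1) of M1 was -0.07 relative to M0, or between -0.29 and 0.38 with single libraries left out.

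Axl, a receptor known to be induced in activated macrophages and dendritic cells, measured 28.3, 14.7 and 79.4 FPKM in M0. Its values were 65.2, 55.2 and 150.02 FPKM in M1. They were 72.3, 56.7 and 132.9 FPKM in M1 + PBM. Replicate 3 was the highest library in each group, and M0 replicate 3, the library with inflammatory and stromal transcripts, overlapped the activated groups. The difference of M1 from M0 was 1.31 on the log2 scale, and 1.94 without M0 replicate 3, when the groups no longer overlapped. It was 0.77 without M0 replicate 2 and 0.87 without M1 replicate 3, with overlap in both cases. Within replicate numbers, Axl was higher in M1 than in M0 by 1.17, 1.84 and 0.91 on the log2 scale.

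Tyro3, the TAM receptor best known from neurons and Sertoli cells, was near the floor of the data. It measured 0.0199, 0.0250 and 0.260 FPKM in M0, 0.00762 to 0.0361 FPKM in M1 and 0.00386 to 0.0590 FPKM in M1 + PBM. If the estimated depth holds, these values correspond at most to 2.72 to 40.1 fragments in M0, 1.06 to 5.82 in M1 and 0.721 to 9.66 in M1 + PBM. M0 replicate 3 was again the highest library. Tyro3 did not reach the minimum of 1 FPKM, no difference was detectable at this depth, and the other 8 genes passed the minimum.

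The balance of the receptors is free of the scaling between libraries, because both genes are read in the same library. Axl made up 62.3%, 24.6% and 82.0% of the summed FPKM of the 3 receptors in M0. Its share was 71.7%, 64.2% and 91.2% in M1 and 67.8%, 66.6% and 85.6% in M1 + PBM. Axl was the larger part in 8 of 9 libraries, the exception being M0 replicate 2. The ratio of Axl to Mertk was 1.65, 0.326 and 4.64 in M0, 2.53, 1.79 and 10.4 in M1 and 2.11, 1.99 and 5.94 in M1 + PBM. It was highest in replicate 3 of each group, and higher in M1 than in M0 within each replicate number. M1 + PBM differed from M1 by -0.31 on the log2 scale (two-sided exact permutation test, p = 0.7, Benjamini-Hochberg adjusted p = 0.9 over 3 ratios), and by 0.46 without M1 replicate 3. With 3 libraries against 3 the smallest p this test can give is 0.1.

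**Figure D2:**
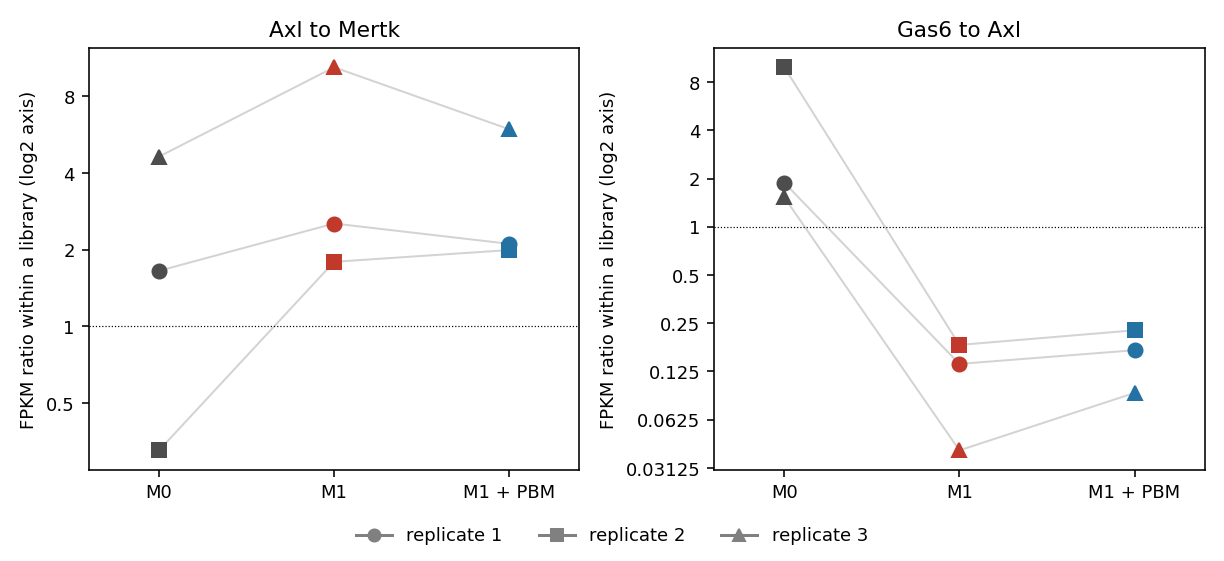
Ratio of Axl to Mertk FPKM (left) and of Gas6 to Axl FPKM (right) within each library, on log2 axes, with lines joining libraries of the same replicate number and a dotted line at a ratio of 1. The Axl to Mertk ratio overlaps between groups, whereas the Gas6 to Axl ratio is 1.53 or more in M0 and 0.226 or less in every activated library.

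Both TAM ligands had lower levels in the activated macrophages. Gas6, whose product activates all TAM receptors, measured 53.4, 145.5 and 121.2 FPKM in M0. It measured 9.08, 10.1 and 6.03 FPKM in M1. In M1 + PBM it measured 12.3, 12.8 and 12.2 FPKM. No library of one group overlapped another: every M1 library lay below every M1 + PBM library, and both lay below M0. The mean was 12.7-fold higher in M0 than in M1 and 8.59-fold higher than in M1 + PBM. On the log2(FPKM + 1) scale the differences from M0 were -3.42 for M1 and -2.88 for M1 + PBM. Gas6 lay above 98.1% of rows in M0, 72.6% in M1 and 80.3% in M1 + PBM.

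Pros1, which encodes protein S, a ligand of MERTK and TYRO3 and an anticoagulant cofactor, measured 9.12, 7.26 and 10.0 FPKM in M0. Its levels were 2.83, 3.36 and 3.17 FPKM in M1 and 3.87, 3.49 and 4.92 FPKM in M1 + PBM. The 3 groups did not overlap and stood in the same order as for Gas6. The mean was 2.82-fold higher in M0 than in M1, and the differences from M0 were -1.24 for M1 and -0.94 for M1 + PBM. Its upstream region is the one shown above with a GAS element at -92, and any part of this element in the levels was not tested.

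The ligand balance also differed between M0 and the activated groups. The ratio of Gas6 to Pros1 was 5.86, 20.04 and 12.1 in M0, 3.20, 3.01 and 1.90 in M1 and 3.17, 3.67 and 2.48 in M1 + PBM, with every activated library below every M0 library. M1 + PBM differed from M1 by 0.22 on the log2 scale (exact permutation test, p = 0.6, adjusted p = 0.9). The ratio of the ligand Gas6 to the receptor Axl, chosen after its values were seen, was 1.88, 9.91 and 1.53 in M0, 0.139, 0.183 and 0.0402 in M1 and 0.170, 0.226 and 0.0918 in M1 + PBM. Gas6 therefore exceeded Axl in every M0 library and was at 0.226 of it or less in each activated library, whatever the scaling between tables.

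Mfge8, whose secreted product links phosphatidylserine to αv integrins, measured 99.9, 203.0 and 106.5 FPKM in M0. It measured 28.8, 81.8 and 20.6 FPKM in M1 and 37.4, 64.9 and 27.7 FPKM in M1 + PBM. Replicate 2 was the highest library of each group, and no activated library reached the M0 range. The differences from M0 were -1.79 for M1 and -1.64 for M1 + PBM.

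Lrp1 encodes the large endocytic receptor that takes up dying cells and many other ligands. It measured 454.4, 454.2 and 337.5 FPKM in M0, 121.7, 116.5 and 91.9 FPKM in M1 and 165.0, 108.2 and 174.5 FPKM in M1 + PBM. M0 lay above both activated groups without overlap, while M1 and M1 + PBM overlapped through M1 + PBM replicate 2. The mean was 3.77-fold higher in M0 than in M1, and the differences were close to each other within replicate numbers (-1.89, -1.95 and -1.86). Lrp1 still lay above 97.5% of rows in M1.

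Elmo1 and Dock1 encode the partners of the RAC1 activating complex. Elmo1 measured 13.1, 13.6 and 13.5 FPKM in M0, 4.07, 3.73 and 9.08 FPKM in M1 and 5.05, 4.51 and 6.24 FPKM in M1 + PBM. Dock1 measured 10.1, 12.5 and 12.1 FPKM in M0, 2.43, 3.64 and 0.811 FPKM in M1 and 3.002, 3.64 and 2.25 FPKM in M1 + PBM. For both genes M0 did not overlap the activated groups, and M1 replicate 3 was the M1 library with the most Elmo1 and the least Dock1. The ratio of Elmo1 to Dock1 was between 1.09 and 1.29 in the 3 M0 libraries, 1.67, 1.03 and 11.2 in M1 and 1.68, 1.24 and 2.77 in M1 + PBM. M1 + PBM differed from M1 in this ratio by -0.58 on the log2 scale (exact permutation test, p = 0.9, adjusted p = 0.9), and by 0.45 without M1 replicate 3. M1 replicate 3 was also the library with the highest Axl and the lowest Mertk. Among the activated libraries it had the most Kdr, 1 of the 4 endothelial markers, at 25.1 FPKM against 8.73 to 13.5 in the others. The endothelial markers Cdh5, Tek and Emcn were at 0.762, 0.0585 and 0.00588 FPKM in this library.

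Across the set, 6 of the 8 genes that passed the minimum were at least 2-fold lower in M1 than in M0 on the log2(FPKM + 1) scale with no overlap between libraries, and none was higher by that rule. Of all 13915 rows, 13.7% met the rule in the lower direction and 7.81% in the higher. In M1 + PBM the count was 5 of 8 lower, the same 6 genes without Pros1, against 10.3% of rows lower and 7.13% higher. These comparisons share the M0 libraries, and their calls are not independent. The median difference of all rows was -0.34 for M1 and -0.27 for M1 + PBM. Relative to this median, M1 differed from M0 by -3.09 for Gas6, -1.69 for Dock1, -1.57 for Lrp1, -1.45 for Mfge8, -0.90 for Pros1, -0.87 for Elmo1, 0.27 for Mertk and 1.65 for Axl.

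Scaling of all 9 libraries by the median of ratios moved these medians to 0.042 and 0.040. It changed the calls over all rows of M1 against M0 from 1087 higher and 1904 lower to 1628 higher and 964 lower, and those of M1 + PBM against M0 from 992 and 1430 to 1383 and 809. Gas6 (-2.94), Dock1 (-1.63) and Lrp1 (-1.40) kept at least a 2-fold lower level in M1 without overlap. Mfge8 (-1.30) and Elmo1 (-0.76) then overlapped M0, and Pros1 was lower by less than 2-fold (-0.81). Each of these 6 genes was lower than M0 under both scalings in both activated groups, whereas Mertk went from -0.07 to 0.41 in M1. Axl was at 1.80 and its groups still overlapped. In M1 + PBM, 4 of the 8 genes were called under this scaling, namely Gas6, Mfge8, Lrp1 and Dock1.

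**Figure D3:**
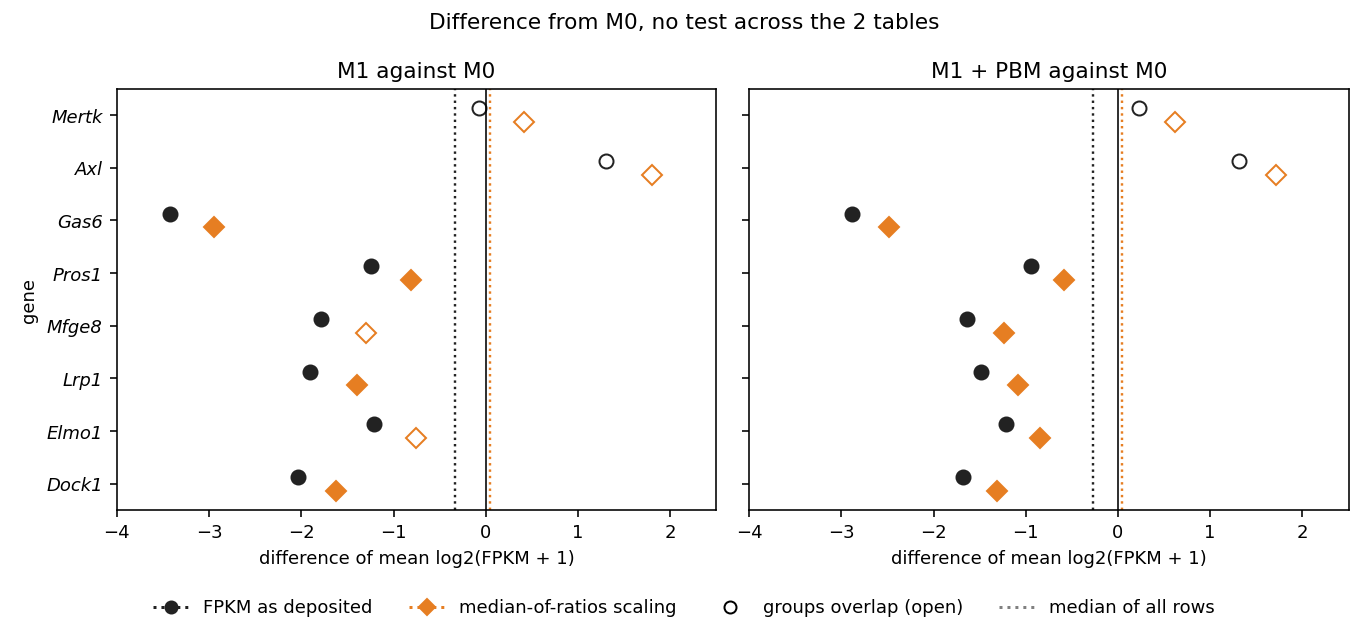
Difference of the mean log2(FPKM + 1) from M0 for the 8 genes above the minimum in M1 (left) and M1 + PBM (right), with the FPKM as deposited (circles) and after median-of-ratios scaling (diamonds). Filled symbols mark groups that do not overlap, dotted lines mark the median of all 13915 rows, and Gas6 lies furthest from M0 in both panels.

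The question of the PBM arm was whether light changes gene expression of M1 macrophages, and it could be tested because both groups stand in the same table. Gas6 was the member with the clearest difference. Its mean was 12.4 ± 0.329 FPKM in M1 + PBM against 8.41 ± 2.12 in M1 (SD, n = 3). The groups did not overlap, and M1 + PBM was higher within every replicate number, by 0.40, 0.31 and 0.91. The log2 fold change was 0.54 (SE 0.18, limma p = 0.0207), and the exact permutation test gave p = 0.1, the smallest it can give. The adjusted p over 12238 rows was 0.900 in limma, so Gas6 did not pass the correction. Without M1 replicate 3 the difference was 0.34 and still passed the unadjusted threshold of 0.05. Without M1 + PBM replicate 1 or 2 it was 0.55 and 0.52 and no longer passed it.

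Pros1 was also higher in each M1 + PBM library than in any M1 library, with a difference of 0.30 (SE 0.13, limma p = 0.0578, exact permutation p = 0.1). It was 0.38 and passed the unadjusted threshold without M1 + PBM replicate 2, and was 0.18 and did not pass without M1 + PBM replicate 3. Lrp1 differed by 0.42 (SE 0.21, limma p = 0.0973, exact permutation p = 0.3), with the replicate numbers at 0.44, -0.11 and 0.92. Without M1 + PBM replicate 2, the library that overlapped M1, the Lrp1 difference was 0.63 and passed the unadjusted threshold.

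The remaining genes overlapped between the groups and did not pass the unadjusted threshold. Mertk differed by 0.30 (SE 0.29), Dock1 by 0.36 (SE 0.35) and Mfge8 by 0.15 (SE 0.54), with exact permutation p of 0.6, 0.6 and 0.8. Axl differed by 0.0035 (SE 0.46) and Elmo1 by -0.0014 (SE 0.30), both with an exact permutation p = 1. When libraries were paired by replicate number the SE was smaller, at 0.16 for Mertk, 0.18 for Dock1, 0.17 for Mfge8 and Elmo1 and 0.093 for Axl. None of these 5 genes passed the unadjusted threshold in that fit either. Without M1 replicate 3, Mertk was at -0.01, Dock1 at -0.02 and Elmo1 at 0.35.

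**Figure D4:**
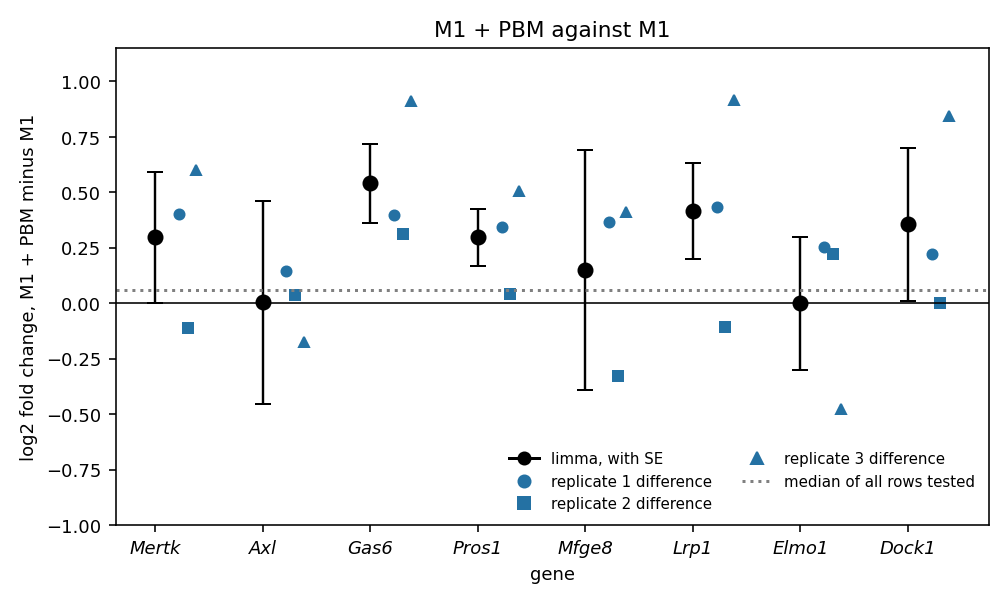
Log2 fold change of M1 + PBM against M1 for the 8 genes above the minimum, from limma on log2(FPKM + 1) with its SE (black), and the differences between libraries of the same replicate number (blue). The dotted line is the median of all 12238 rows tested, and Gas6 is the gene whose 3 replicate differences are all above 0.3.

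Of the 8 genes, 7 had a positive and 1 a negative difference, with a median of 0.30, against a median of 0.058 and 8026 positive of the 12238 rows. One gene, Gas6, was higher at an unadjusted p of at most 0.05 and none was lower, and none passed at an adjusted p under 0.05. Of all rows, 2.99% were higher and 1.45% lower at that unadjusted p, and 0.00817% (1 row, a locus with no gene name) passed the adjusted test. Groups without overlap were found for 8.51% of rows in the higher direction and 2.52% in the lower, and for 2 of the 8 genes, Gas6 and Pros1, both higher. Median-of-ratios scaling changed the unadjusted calls over all rows from 366 higher and 177 lower to 237 higher and 283 lower, with a median of -0.0053. Under it Gas6 was at 0.47 and still passed the unadjusted threshold, with Lrp1 at 0.34, Pros1 at 0.23, and Axl and Elmo1 at -0.08 and -0.07.

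By role, 93 other genes of the pathway were listed, of which 80 reached the minimum in the 9 libraries. Between M0 and M1, 14 of the 80 were at least 2-fold higher and 18 at least 2-fold lower without overlap, with a median of -0.31. Of all 13915 rows, 7.81% were higher and 13.7% lower by that rule, with a median of -0.34. Among the pathway genes called, Pparg and Itgb3 met the minimum only through M0, where they were higher. Socs1 met it only through the activated groups, where it was higher. Under median-of-ratios scaling the counts were 18 higher and 10 lower of the 80, with a median of 0.18. All rows then gave 1628 higher and 964 lower, with a median of 0.042, so both balances depended on the scaling. In M1 + PBM 11 of the 80 were higher and 16 lower, or 13 and 9 under that scaling. The shares over all rows were 7.13% and 10.3%, and the scaled counts 1383 and 809 of 13915. Uptake receptors other than the TAM family went both ways, with 4 of 11 higher and 5 lower in M1. Of 17 other ELMO, DOCK, RAC and adaptor genes, 2 were higher and 3 lower.

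The 3 pathway genes furthest below M0 in M1 were Pparg, Trem2 and S1pr1. Pparg, a nuclear receptor that senses lipids, was at 15.7 ± 6.12 FPKM in M0 and 0.787 ± 0.247 FPKM in M1 (difference -3.16). In the activated groups only replicate 3 of each reached 1 FPKM of Pparg, so its place among the rows depended on M0. Trem2, a lipid receptor of phagocytes, was at 155.3 ± 53.0 and 25.5 ± 11.9 FPKM (-2.60), and S1pr1, which senses the find-me signal sphingosine 1-phosphate, at 18.9 ± 0.477 and 2.97 ± 0.913 FPKM (-2.35). These 3 genes stayed below M0 under median-of-ratios scaling, at -2.78, -2.10 and -1.91.

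The furthest above M0 were the feedback genes Socs3 and Socs1 and the opsonin gene Thbs1. Socs3, whose product limits STAT3 signalling, measured 0.707, 0.372 and 34.5 FPKM in M0 and 243.2, 194.0 and 368.6 FPKM in M1 (5.90). Socs1, whose product limits interferon signalling, was at 0.265 ± 0.162 FPKM in M0 and 14.1 ± 1.91 FPKM in M1 (3.58). No M0 library reached 1 FPKM of Socs1, so its place among the rows depended on the activated groups. Socs3 and Socs1 are both TAM feedback targets and are also induced by LPS and interferons. Thbs1, which encodes the bridging protein thrombospondin-1, measured 4.29, 4.21 and 30.5 FPKM in M0 and 75.1, 42.2 and 190.9 FPKM in M1 (3.17). M0 replicate 3 was the highest M0 library for all of them, although for Socs1 it held only 0.449 FPKM.

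Between M1 and M1 + PBM, 76 pathway genes were tested, of which 49 had a positive and 27 a negative difference, with a median of 0.071. At an unadjusted p of at most 0.05, 5 were higher and 3 lower, and none passed the adjustment over all rows in limma. Of all 12238 rows, 2.99% were higher and 1.45% lower at that p, with a median of 0.058. The count of 8 became 4 without M1 replicate 1, 17 without M1 replicate 2, 5 without M1 replicate 3, 4 without M1 + PBM replicate 1 and 4 without M1 + PBM replicate 3. A paired fit, blocked by replicate number, gave 15, of which 8 were higher and 7 lower, and none passed the adjustment. Over all 12238 rows that fit gave 592 higher and 396 lower.

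Thbs1 and Socs3 were among the genes that passed the unadjusted threshold in the paired fit only, both lower in M1 + PBM. Thbs1 measured 35.5, 21.7 and 97.1 FPKM in M1 + PBM against 75.1, 42.2 and 190.9 FPKM in M1. It was lower within every replicate number, and the groups overlapped. Its log2 fold change was -0.99, with an SE of 0.075 in the paired fit (limma adjusted p = 0.364) and 0.70 without pairing. Socs3 measured 181.9, 178.0 and 220.7 FPKM against 243.2, 194.0 and 368.6 FPKM, also lower within every number, with a log2 fold change of -0.43 and an SE of 0.135 paired and 0.24 unpaired.

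Socs1 was lower in M1 + PBM, at 7.15, 8.78 and 7.40 FPKM against 16.3, 12.7 and 13.3 in M1 (-0.78, SE 0.13, limma adjusted p = 0.809). Vkorc1, which encodes the vitamin K reductase that γ-carboxylation of GAS6 and protein S relies on, was lower as well, at 3.91, 3.56 and 3.46 FPKM against 7.26, 6.14 and 5.74 (-0.66, SE 0.11, limma adjusted p = 0.809). The other 2 genes listed for this carboxylation, Ggcx (0.21, SE 0.12) and Vkorc1l1 (0.06, SE 0.11), had positive differences with overlap between the groups. Cd24a, a do not eat me signal, was at 0.853 ± 0.167 against 1.82 ± 0.469 FPKM (-0.60, SE 0.15). It lay near the minimum of 1 FPKM, which all 3 M1 libraries but only replicate 2 of M1 + PBM reached. Its place among the tested rows thus depended on the group where it was higher. Socs1, Vkorc1 and Cd24a did not overlap between the groups, and each stayed at an unadjusted p of at most 0.05 when any 1 library was left out. The tested rows were not chosen anew in those fits, so for Cd24a they do not remove the dependence on the minimum.

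The 5 higher genes were Itgb5, Nr1h3, Elmo2, Lrp5 and Dock2. Itgb5 encodes the integrin β5 chain, a receptor for MFG-E8 with αv, and was at 24.2 ± 1.72 FPKM in M1 + PBM against 17.1 ± 4.77 in M1 (0.51, SE 0.19). Nr1h3 encodes the oxysterol receptor LXRα, which is known to raise Mertk, and was at 80.4 ± 10.5 against 60.0 ± 6.88 FPKM (0.41, SE 0.14). Elmo2 and Dock2, relatives of Elmo1 and Dock1, differed by 0.34 (SE 0.11) and 0.27 (SE 0.10), and Lrp5, a relative of Lrp1 best known as a Wnt co-receptor, by 0.34 (SE 0.11). Each of these 5 lost its unadjusted p of at most 0.05 when certain single libraries were left out, and Nr1h3 (0.33) and Dock2 (0.19) also under median-of-ratios scaling in limma. Elmo2 and Dock2 had lower means in M1 than in M0, with differences of -1.50 and -1.01, or -1.05 and -0.52 under that scaling.

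**Figure D5:**
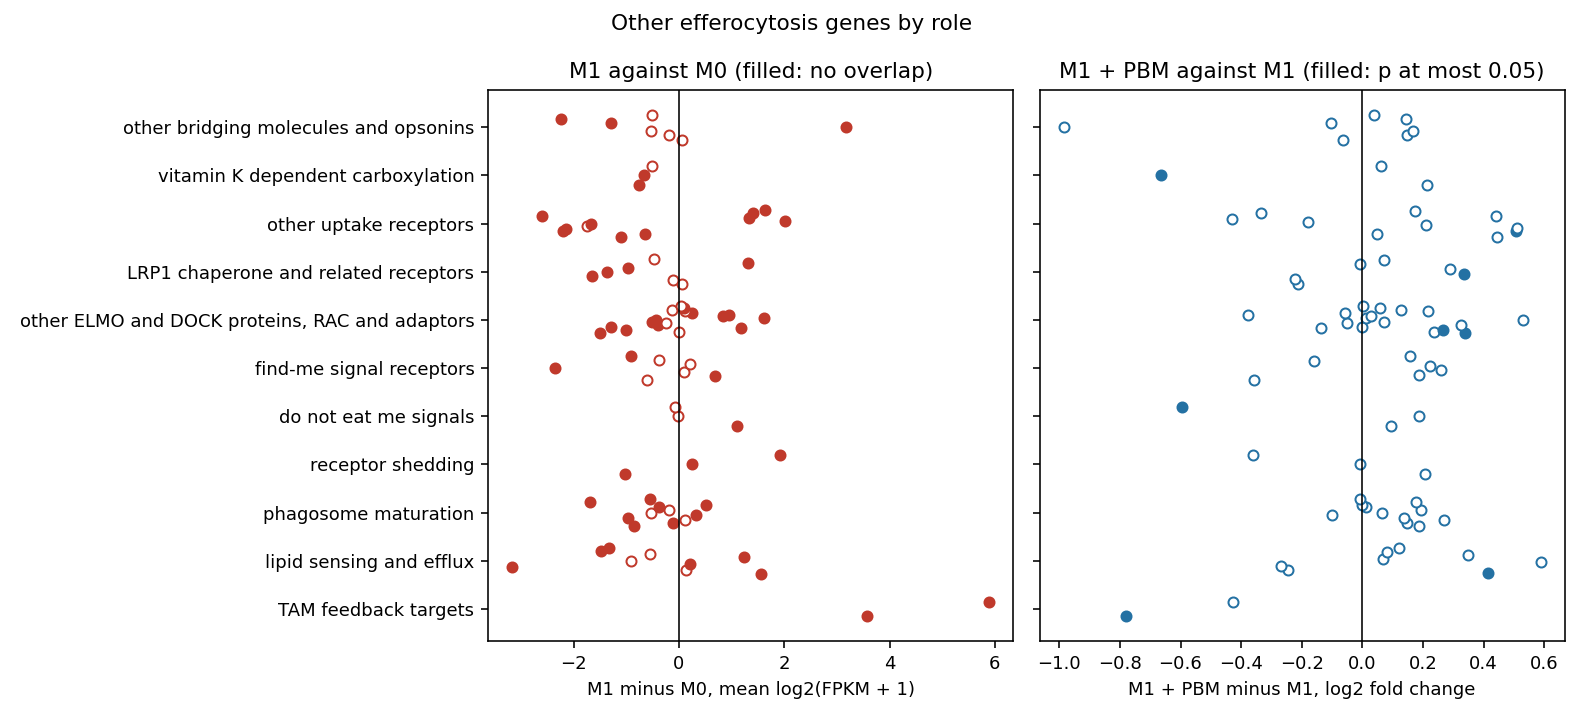
Each point is 1 pathway gene in the row of its role. Left, the difference of the mean log2(FPKM + 1) between M1 and M0 for 80 genes, filled where the groups do not overlap. Right, the limma log2 fold change of M1 + PBM against M1 for 76 genes, filled for the 8 with an unadjusted p of at most 0.05. Socs1 and Socs3 lie furthest right in M1 and left of 0 in M1 + PBM.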

How the data were processed

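RNA-seq of 9 libraries was analysed from the FPKM values that the authors deposited in 2 tables, 1 for M0 and 1 for M1 and M1 + PBM. The paper names Cufflinks for the expression values, and the submitters' processing notes name Bowtie 0.12.2 and mm9. Row names of 320 loci begin with MSTRG, a form that StringTie gives. Of 55655 rows, 55154 had a symbol in GENCODE M21. No whole reads could be recovered, since 22.5% to 24.3% of low values were whole multiples of 1 fragment (tolerance 0.05), so no count test was run. Fragment numbers are upper estimates from the longest transcript at the estimated depth.

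Rows with at least 1 FPKM in at least 3 libraries were kept. M1 + PBM and M1 were compared with limma 3.58.1 in R 4.3.3 (trend) on log2(FPKM + 1), which understates changes of low genes, with Benjamini-Hochberg adjustment, and with two-sided exact permutation tests. The fit was tested on simulated data with independent libraries and planted changes larger than any member difference between M1 and M1 + PBM. That test therefore does not cover effects of the size reported here. Another pseudocount, minimum, scaling, prior, a replicate block and left-out libraries were tried. Same-numbered M1 and M1 + PBM libraries deviated together from their group means (r = 0.157, 0.469 and 0.462). Differently numbered libraries of these groups had r from -0.491 to 0.0328, and same-numbered M0 and M1 libraries from 0.0555 to 0.243. Deviations within a group cancel out, so positive same-numbered r make the differently numbered r negative on balance. The differently numbered values are therefore no separate evidence of pairing. The paired fit used the replicate numbers, whereas the main limma fit and the permutation tests did not. The members and lists were chosen with earlier results of these data known. Named genes are all members, pathway genes with an unadjusted p of at most 0.05 in the PBM comparison, and the 3 largest differences without overlap each way between M0 and M1; the Gas6 to Axl ratio was added later. Promoters are from RefSeq (GRCm38.p6), a build other than the one in the notes, and no deposited coordinate was used.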

Additional observations from a re-analysis of the deposited data

How the results depend on the processing

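No member passed the adjusted limma test of M1 + PBM against M1 under any alternative tried, and the M0 comparisons rest on 2 tables normalized separately. Of the members, 1 was called at an unadjusted p of at most 0.05, and 0 to 2 when single libraries were left out. The pathway count of 8 became 5 with a mean FPKM of at least 5, 15 with the replicate block and 4 to 17 with left-out libraries. The count over all rows, 543, became 1318 with no minimum FPKM, 233 with a mean of at least 5, 988 with the replicate block and 259 to 1089 with left-out libraries (259 and 342 without replicates 1 and 3 of M1 + PBM, 312 without that of M1 numbered 1, 930 without replicate 2 of M1 + PBM and 1089 without that of M1). The replicate block, a paired fit, changed no call of a member. Between M0 and M1, 6 members were called, and 3 under median-of-ratios scaling. Axl between M1 and M1 + PBM was at -0.076 under that scaling, and Elmo1 at 0.012 with a pseudocount of 0.1. With left-out libraries the log2 difference ran from -0.010 to 0.51 for Mertk, -0.34 to 0.44 for Axl, -0.25 to 0.72 for Mfge8, -0.20 to 0.35 for Elmo1 and -0.024 to 0.65 for Dock1, and that of the ratios from -0.82 to 0.46 for Axl to Mertk, -0.018 to 0.37 for Gas6 to Pros1 and -1.27 to 0.45 for Elmo1 to Dock1. The cause was not tested.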
